A study of Arabidopsis thaliana with 6 samples.

Results

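The long arm of chromosome 1 of *Arabidopsis thaliana* holds a stretch of genes, from At1g62422 to At1g66430, in which transcripts that differed between *fbs1-1* and WT seedlings lie close together. Its members were all genes between these loci that the tables used here tie to a probe set of their own. In this way 211 genes were measured, out of 13567 genes of the array tied to 1 locus. A gene called not measured below may still have a probe set that these tables do not tie to it. The stretch has 472 annotated loci in assembly TAIR10.1, of which 433 are protein coding, so that 44.7% of its loci had a value here. At1g66100 lies inside these limits and was left out by the rule. The stretch was chosen by the differences between these same *fbs1-1* and WT arrays, where differing genes were seen to crowd. The differences below are for this reason a description of the stretch and no test of it.

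The study asked which transcripts depend on *FBS1*, a gene for an F-box protein, in chilled seedlings. RNA was taken from 12 day-old seedlings that were grown for 5 days at 24 °C and then for 7 days at 10 °C, with 3 arrays of *fbs1-1* and 3 arrays of WT. In the *fbs1-1* plants a transposon sits in intron 1 of *FBS1*, and all come from 1 such line. Both genotypes had the same chilling, and no array of unchilled plants is part of this comparison. The labels give the accession No-0 as the background of all 6 samples, while the names of the 3 WT arrays begin with Nd0. An effect of the insertion and any other difference between the mutant line and the WT line cannot be told apart with 1 line of each. *FBS1* (At1g61340) lies on the same chromosome, with 157 annotated loci between it and At1g62422. No table used here ties *FBS1* to a probe set, and its level is not analysed here.

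Genes that lie side by side on an *Arabidopsis* chromosome usually have unrelated functions and their own promoters. Exceptions are tandem copies, which are frequent among genes for disease resistance proteins and for pentatricopeptide repeat (PPR) proteins, RNA-binding proteins that act on mitochondrial and plastid transcripts. Members of such families can be so alike that an array probe cannot separate them. F-box proteins such as FBS1 are the substrate-binding subunits of SCF ubiquitin ligases, which receive ubiquitin from ubiquitin-conjugating (E2) enzymes.

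Values are log2 intensities, so that a difference of 1 is a 2-fold change, and all differences are *fbs1-1* minus WT. A gene was called where limma gave an adjusted p under 0.05 over all 22746 probe sets. The 6 arrays were alike in level, with medians of 2.62 to 2.72, and from 40.2% to 40.8% of the probe sets lay under 2 on each array. Pearson's r was 0.990 to 0.996 between arrays of 1 genotype and 0.981 to 0.988 between arrays of different genotypes. Of the marker lists for the tissues of a seedling, 2 of 12 shoot genes and 5 of 12 root genes could be measured, with none of the shoot genes called by limma, none of them at an unadjusted p under 0.05 and none by rank products, and 1 of the root genes called by limma (At2g37130, lower in *fbs1-1*). The summed levels of these lists overlapped between the genotypes, at 12.11 to 12.17 in *fbs1-1* and 12.14 to 12.18 in WT for the shoot genes and at 10.13 to 10.46 in *fbs1-1* and 10.21 to 10.36 in WT for the root genes. Of 8 cold-induced marker genes 4 were measured, with summed levels of 11.09 to 11.48 in *fbs1-1* and 10.97 to 11.26 in WT. A sum mostly follows the most abundant genes, such as *PYK10* among the root genes (mean 10.10 in *fbs1-1* and 10.03 in WT). Single genes went both ways. Their differences ran from -0.24 to 0.09 for the shoot genes, -0.60 to 0.52 for the root genes and -0.69 to 0.57 for the cold-induced genes. In RNA of whole seedlings, fewer cells of a type and less RNA per cell cannot be told apart.

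Within the stretch, 17 genes were higher and 12 were lower in *fbs1-1*, and 182 were not called. The called genes were 13.7% of the 211, where 3.25% of all probe sets were called, 1.68% as higher and 1.57% as lower. Of all genes tied to 1 locus 4.19% were called, and of the other such genes on chromosome 1 5.88%. Since the stretch was chosen for such differences, nothing is read from the gap between these shares. Of the 29 called genes, 9 differed at least 2-fold, with 6 higher and 3 lower, where 1.04% of all probe sets were called with a difference of this size. Most genes of the stretch had small differences, smaller than 0.25 for 134 genes and smaller than 0.5 for 173. As 80 of the 211 genes had less than 2 on every array, a small difference there does not show equal transcript levels. The median difference was 0.01 over the stretch and 0.01 over all 13567 genes, and the median size of a difference without its sign was 0.16 over the stretch and 0.10 over all genes. The arrays of the genotypes did not overlap for 74 genes (40 higher, 34 lower), or 35.1%, against 19.7% of all probe sets.

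How a gene was tied to its probe set bears on these counts. The platform's annotation ties 201 of the genes, and 20 of them (9.95%) were called, against 2.80% of all genes tied this way. The other 10 genes are tied only by the study's own tables of differing genes, so that they were known to differ before they were counted. They are *CDS1*, *FMO GS-OX4*, *UBC5*, *ENODL8*, *VTE4*, *4CL3*, *mtACP2*, *XTH17*, *PP2-A5* and *KOR2*, and all except *KOR2* were called.

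**Figure D1:**
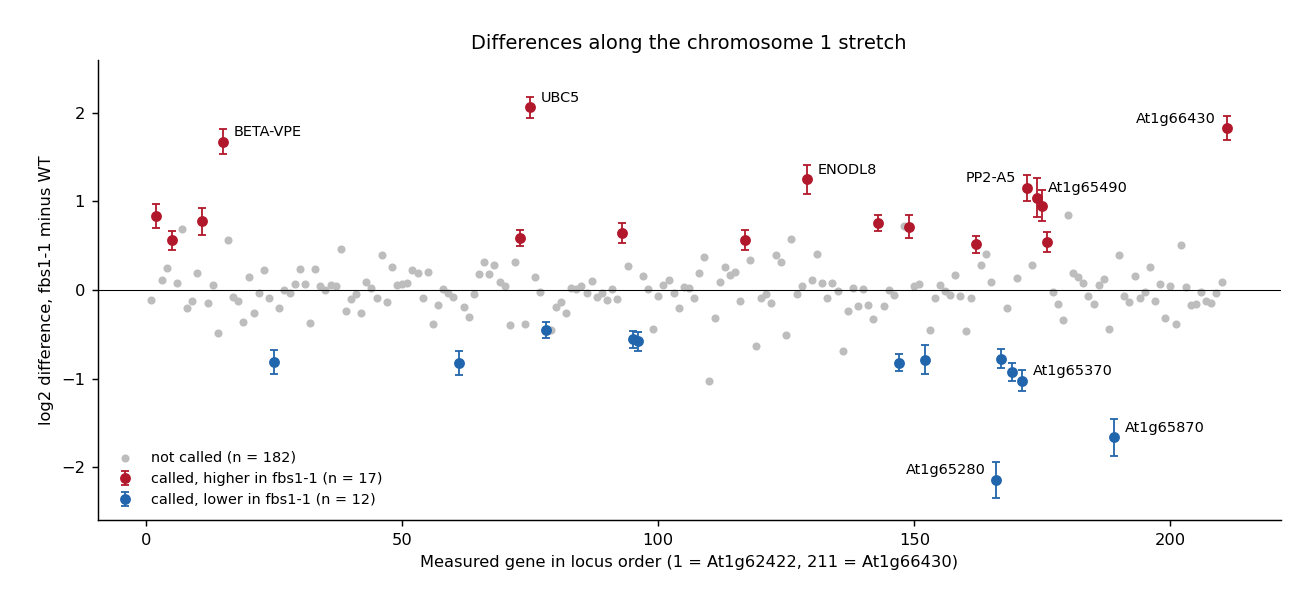
Difference between the genotypes (log2, *fbs1-1* minus WT, vertical axis) for each of the 211 measured genes, placed in locus order with equal spacing (horizontal axis). Red and blue points are genes called as higher (17) and lower (12) in *fbs1-1*, with bars of 1 standard error, and grey points are the 182 other genes, and the called genes lie on both sides of 0 along the whole stretch.

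The largest difference upward was that of *UBC5* (At1g63800), a gene for an E2 ubiquitin-conjugating enzyme. It had 4.99, 5.15 and 4.93 on the *fbs1-1* arrays and 3.06, 3.09 and 2.73 on the WT arrays. All *fbs1-1* arrays were far above all WT arrays, and the difference was 2.06 ± 0.12 (SE, n = 3 arrays each), or 4.17-fold. *UBC28* (At1g64230), another E2 gene of the stretch, was not called. It had 8.11, 7.92 and 7.43 in *fbs1-1* and 8.42, 8.09 and 8.29 in WT, and these values overlapped.

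At1g66430 is the last gene of the stretch and encodes a carbohydrate kinase of the pfkB family, to which the fructokinases belong. Its values were 7.10, 6.67 and 6.83 in *fbs1-1* and 5.02, 4.89 and 5.20 in WT. The lowest *fbs1-1* array was more than 1 unit above the highest WT array. The difference was 1.83 ± 0.13, or 3.55-fold.

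*BETA-VPE* (At1g62710) encodes a vacuolar processing enzyme, a cysteine protease known for cutting storage proteins in seeds. Its values of 3.23, 3.68 and 3.73 in *fbs1-1* stood against 1.91, 1.97 and 1.74 in WT. The WT arrays lay in the range where 40.5% of all genes had all of their values, below 2, and the *fbs1-1* arrays lay above it. The difference was 1.68 ± 0.15, or 3.20-fold.

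*ENODL8* (At1g64640) belongs to the early nodulin-like proteins, cell-surface proteins with a domain like that of the copper-binding plantacyanins. Values were 5.54, 5.12 and 5.07 in *fbs1-1* and 4.27, 3.81 and 3.89 in WT, a difference of 1.25 ± 0.16 (2.38-fold) with no overlap. *PP2-A5* (At1g65390), a member of the lectin family of phloem protein 2, lay near the low end of the array's range in WT. It had 2.89, 3.37 and 3.32 in *fbs1-1* and 1.93, 2.01 and 2.17 in WT, a difference of 1.15 ± 0.14 (2.22-fold). At1g65490, for which no function is given in the tables used here, spread more within each genotype, with 5.92, 6.60 and 6.06 in *fbs1-1* and 5.57, 5.03 and 4.86 in WT. Its arrays were still apart, with a difference of 1.04 ± 0.22 (2.06-fold), and the call was lost when any single array other than WT replicate 1 was left out.

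Downward, At1g65280 had the largest difference of the stretch. It encodes a protein with a DnaJ domain, the part of co-chaperones that binds HSP70. Its values were 2.34, 1.90 and 2.76 in *fbs1-1*, near the low end of the array's range, and 4.63, 4.34 and 4.47 in WT. The difference was -2.14 ± 0.20, or 4.42-fold lower in *fbs1-1*, and the *fbs1-1* arrays differed more among themselves than the WT arrays did.

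At1g65870 encodes a dirigent-like protein, of the family that directs how phenolic units couple in lignan synthesis. It had 4.279, 3.505 and 3.813 in *fbs1-1* and 5.824, 5.271 and 5.487 in WT, a difference of -1.66 ± 0.21 (3.16-fold lower). At1g65370, a gene of the TRAF-like family, had 1.37, 1.45 and 1.69 in *fbs1-1* and 2.41, 2.68 and 2.49 in WT. Here all arrays of both genotypes were low, and the difference of -1.02 ± 0.12 (2.03-fold lower) lies between values under 2 and values just above it.

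**Figure D2:**
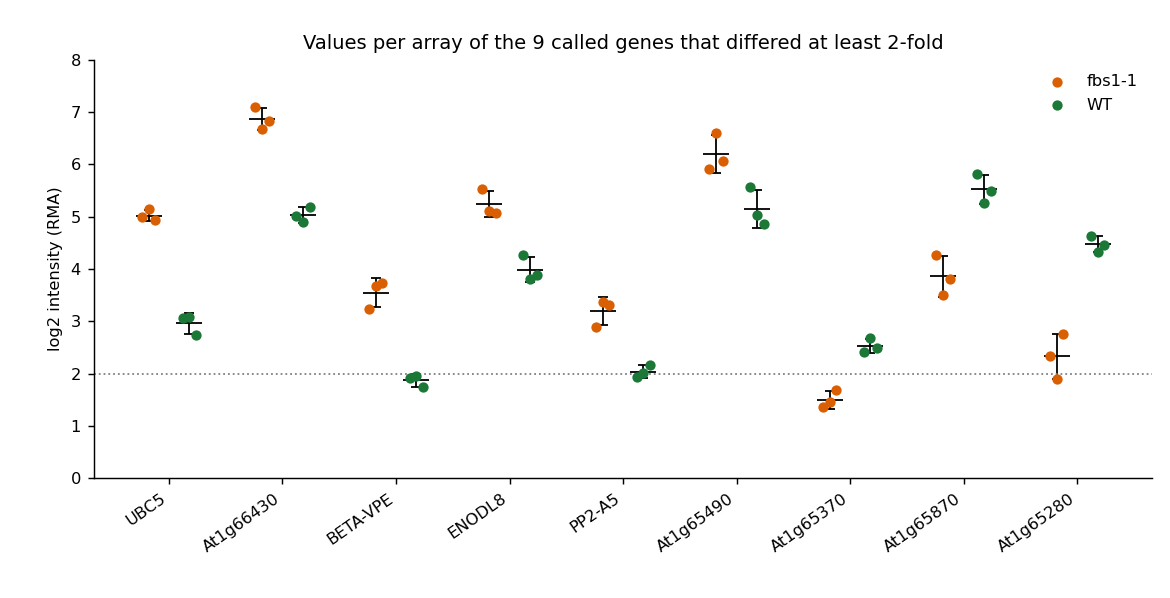
Log2 intensity per array (vertical axis) of the 9 called genes that differed at least 2-fold, ordered from the largest increase to the largest decrease in *fbs1-1*, with *fbs1-1* in orange and WT in green. Black dashes are means of 3 arrays with bars of 1 SD, the dotted line marks the level of 2, and for each of the 9 genes the arrays of the genotypes do not overlap.

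The other 20 called genes differed by less than 2-fold, 11 upward by 1.43- to 1.93-fold and 9 downward by 1.37- to 1.90-fold. Several have known roles in metabolism. *CDS1* (At1g62430) encodes a CDP-diacylglycerol synthase of phospholipid synthesis and averaged 4.04 ± 0.13 in *fbs1-1* and 3.21 ± 0.23 in WT (SD, n = 3 arrays each). *FMO GS-OX4* (At1g62570), whose product oxidizes the sulfur of aliphatic glucosinolates, averaged 3.56 ± 0.28 in *fbs1-1* and 2.78 ± 0.17 in WT. Both were higher in *fbs1-1*, by 0.84 ± 0.14 and by 0.78 ± 0.15 (SE). With 1 of the 6 arrays left out, the call of *CDS1* was lost in 3 fits. That of *FMO GS-OX4* was lost in 5 fits.

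Among the lower genes, *VTE4* (At1g64970) encodes the methyltransferase that makes alpha-tocopherol, the main vitamin E of leaves. It had 5.61, 5.74 and 5.52 in *fbs1-1* and 6.43, 6.40 and 6.50 in WT, with a narrow spread in each genotype and a difference of -0.82 ± 0.10. *4CL3* (At1g65060), a gene for a 4-coumarate:CoA ligase of the phenylpropanoid pathway, averaged 5.06 ± 0.23 in *fbs1-1* and 5.85 ± 0.27 in WT. Its difference was of nearly the same size, at -0.79 ± 0.16, with a wider spread. The call of *4CL3* was lost when any single array other than *fbs1-1* replicate 2 was left out. *mtACP2* (At1g65290), for an acyl carrier protein of mitochondrial fatty acid synthesis, had 6.62, 6.66 and 6.52 in *fbs1-1* and 7.28, 7.56 and 7.29 in WT. Its *fbs1-1* arrays all lay below its WT arrays, with a mean difference of -0.78 ± 0.11.

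Of the other called genes with an annotation, At1g64880 encodes a protein of the ribosomal protein S5 family and averaged 6.16 ± 0.06 in *fbs1-1* and 5.40 ± 0.07 in WT, a difference of 0.75 ± 0.09. At1g62850 encodes a class I peptide chain release factor and averaged 3.26 ± 0.25 in *fbs1-1* and 4.08 ± 0.09 in WT, a difference of -0.81 ± 0.13. For both, every *fbs1-1* array was on the same side of every WT array. At1g63540, for a hydroxyproline-rich glycoprotein, was lower in *fbs1-1* too, with 1.62, 1.37 and 1.52 in *fbs1-1* and 2.13, 2.30 and 2.56 in WT. The calls of At1g62850 and At1g63540 were each lost in 3 of the 6 fits without 1 array.

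No function is given in the tables used here for the other 11 of these 20 genes. Of them, At1g62480, At1g63770, At1g64150, At1g64450, At1g65000, At1g65220, At1g65500 and At1g65510 were higher and At1g63830, At1g64180 and At1g64185 were lower. At1g63770 was the only called gene among the 9 genes of the stretch with a mean of at least 7, at 7.42 ± 0.07 in *fbs1-1* and 6.83 ± 0.07 in WT. At1g63830 had the smallest called difference, at -0.45 ± 0.09, with 4.53, 4.65 and 4.66 in *fbs1-1* and 5.09, 5.07 and 5.05 in WT. The SD was 0.073 in *fbs1-1* and 0.019 in WT, and the call did not hold when any 1 of the 6 arrays was left out. The same was true of At1g64185. The calls of At1g62480, At1g64450, At1g65220 and At1g65510 were each lost in 5 of these 6 fits. Those of At1g64150, At1g64180, At1g65000 and At1g65500 were each lost in 4, and that of At1g63770 in 2. Of the 11 genes, rank products called only At1g65500.

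The called genes were mostly genes with a mean of at least 2. Of the 116 genes at this level over the 6 arrays, 26 were called (22.4%), against 7.14% of all such genes. Of the 95 genes below it, 3 were called (3.16%), against 0.618% of all genes there. As many as 80 genes of the stretch (37.9%) had less than 2 on every array, and limma called none of them, with 4 of the 80 (5%) at an unadjusted p under 0.05, against 14.9% of all genes, and none called by rank products. For such genes a value near the low end of the array does not tell whether the transcript was made.

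**Figure D3:**
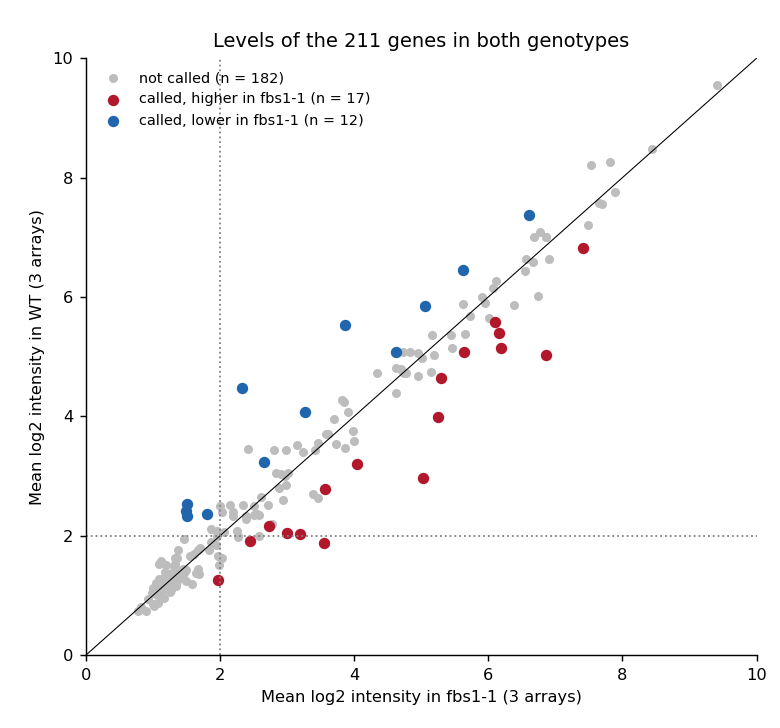
Mean log2 intensity of each of the 211 genes in *fbs1-1* (horizontal axis) and in WT (vertical axis), each over 3 arrays, with the line of equal values and dotted lines at 2. Red (17) and blue (12) points are called genes and grey points (182) are not called, and most of the dense group of points below 2 in both genotypes is uncalled.

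Few genes were on in 1 genotype and off in the other. With a gene taken as off where all 3 arrays of a genotype were under 2, and as on where all 3 arrays of the other were at or above 3, *BETA-VPE* was the only case of the 211, on in *fbs1-1* and off in WT. Of all 13567 genes, 0.147% met these limits. With 1 limit of 2 for both, set after the values were seen, 5 genes met it (2.37%, against 0.715% of all genes). Besides *BETA-VPE*, these were At1g63540, At1g64180, *XTH17* and At1g65370, all of them at or above 2 in WT and below 2 in *fbs1-1*. *XTH17* (At1g65310), for an enzyme that cuts and rejoins xyloglucan chains in the cell wall, had 1.45, 1.53 and 1.49 in *fbs1-1* and 2.41, 2.54 and 2.29 in WT. For these 4 genes the WT mean was between 2.33 and 2.53, only a little above the limit, whereas *BETA-VPE* averaged 3.55 ± 0.27 in *fbs1-1* and 1.87 ± 0.12 in WT.

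In locus order, called genes occurred along the whole stretch and in both directions. Divided into 5 blocks of 42 or 43 measured genes, the stretch had 4 higher and 1 lower in the first, 2 higher and 2 lower in the second and again in the third, 4 higher and 5 lower in the fourth, and 5 higher and 2 lower in the fifth. Of the 28 pairs of called genes that follow each other, 14 had the same direction, and 5 pairs were direct neighbors among the measured genes. Long runs without a call lay between them. The longest had 35 genes, between At1g62850 and At1g63540, and the next had 21 genes, between At1g65870 and At1g66430, and 20 genes, between At1g64185 and At1g64450.

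The densest group of called genes ran from At1g65280 to At1g65510, where 8 of 11 measured genes were called (72.7%, against 4.19% of all genes tied to 1 locus). It was picked out after its values were seen, and it begins and ends with a called gene. Nothing is read from its share for this reason. The 4 called genes that come first were lower in *fbs1-1* (At1g65280, *mtACP2*, *XTH17* and At1g65370) and the 4 that follow were higher (*PP2-A5*, At1g65490, At1g65500 and At1g65510). Of the 8, *mtACP2*, *XTH17* and *PP2-A5* are tied to their probe set only by the study's tables. The uncalled genes between them were At1g65295, at 5.16 ± 0.22 in *fbs1-1* and 5.36 ± 0.16 in WT, *AGL23* (At1g65360), a MADS-box gene with 1.00 ± 0.05 in *fbs1-1* and 0.86 ± 0.10 in WT, and *GLC* (At1g65450), at 2.27 ± 0.16 in *fbs1-1* and 1.98 ± 0.22 in WT.

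At1g65490, At1g65500 and At1g65510 are consecutive loci and were all higher in *fbs1-1*, at different levels. At1g65500 had 2.77, 2.86 and 3.34 in *fbs1-1* and 1.98, 2.31 and 1.85 in WT, a difference of 0.95 ± 0.17. At1g65510 had 2.57, 2.47 and 2.31 in *fbs1-1* and 2.03, 1.82 and 1.87 in WT, a difference of 0.54 ± 0.11. For all 3 loci the arrays of the genotypes were apart, and each call was lost without some of the single arrays.

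**Figure D4:**
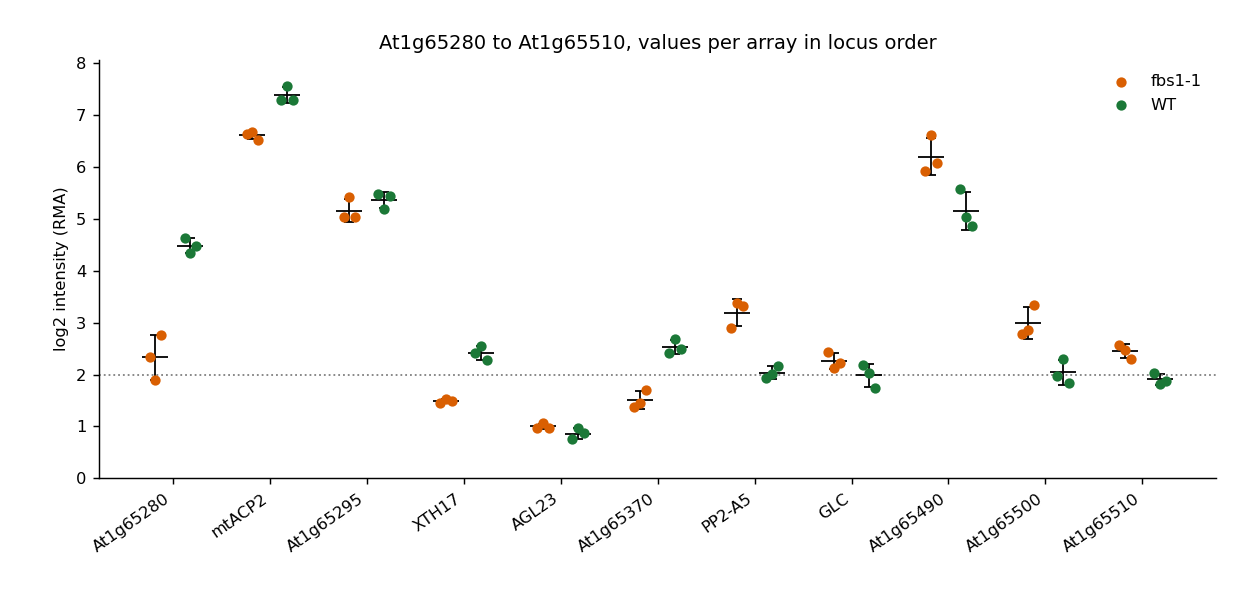
Log2 intensity per array (vertical axis) of the 11 measured genes from At1g65280 to At1g65510 in locus order, with *fbs1-1* in orange and WT in green. Black dashes are means of 3 arrays with bars of 1 SD and the dotted line marks the level of 2, and the *fbs1-1* arrays lie below the WT arrays for the 4 called genes on the left and above them for the 4 on the right.

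At the borders, At1g62422 itself was not called, at 2.91 ± 0.24 in *fbs1-1* and 3.03 ± 0.12 in WT. The next genes inward included *CDS1* and At1g62480, so that 2 of the first 5 genes were called. *CDS1* is tied only by the study's tables of differing genes. The call of At1g62480 was lost in 5 of the 6 fits without 1 array and was not made by rank products. Of the 5 measured genes just before At1g62422, none was called by limma, had an unadjusted p under 0.05 or was called by rank products, with differences from -0.26 to 0.25. At the other border, At1g66430 was the only called gene of the last 5. The next 10 measured genes beyond it included 1 called gene, At1g66540, with 1.21 ± 0.02 in *fbs1-1* and 2.26 ± 0.24 in WT. The share called was 4.19% over all genes tied to 1 locus. Nothing is read from these border counts, because the stretch was chosen for such differences.

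Gene families with several copies in the stretch were described from lists put together from general knowledge of the *Arabidopsis* genome, not from a table. Of 20 PPR genes of the RFL type, the relatives of restorers of fertility, 10 could be measured singly. Neither limma nor rank products called any of them, and 2 of the 10 (20%) had an unadjusted p under 0.05 in limma, near the 14.9% of all genes. Their differences ran from -0.20 to 0.47 with a median of 0.06, and 7 of them had less than 2 on all 6 arrays.

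Resistance genes of the NBS-LRR type, whose products sense pathogen effectors inside the cell, gave 8 measured of 12 listed. Neither limma nor rank products called any of them, and 4 of the 8 (50%) had an unadjusted p under 0.05 in limma, against 14.9% of all genes. All were near the low end of the array's range, with means of 1.09 to 1.68 in *fbs1-1* and 1.27 to 1.77 in WT. Their differences ran from -0.44 to 0.32, with a median of -0.20 against 0.01 over all genes.

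Another 15 probe sets match 2 loci each with at least 1 in the stretch, and for 11 of them both loci lie inside it. They were kept out of the 211 genes, because their value cannot be assigned to a single copy. Of these, 2 were called, where 3.25% of all probe sets were called. Nothing is read from this count, because the stretch was chosen for such differences. The probe set for a pair of CC-NBS-LRR genes had 3.93, 4.49 and 3.98 in *fbs1-1* and 2.32, 2.83 and 2.94 in WT, a difference of 1.44 ± 0.20 (2.71-fold). The probe set for a pair of protein kinase genes had 4.34, 4.26 and 4.07 in *fbs1-1* and 5.29, 4.87 and 5.21 in WT, a difference of -0.90 ± 0.13 (1.86-fold lower). The arrays of the genotypes were apart for both pairs. For the other shared probe sets the differences ran from -0.63 to 0.47.

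**Figure D5:**
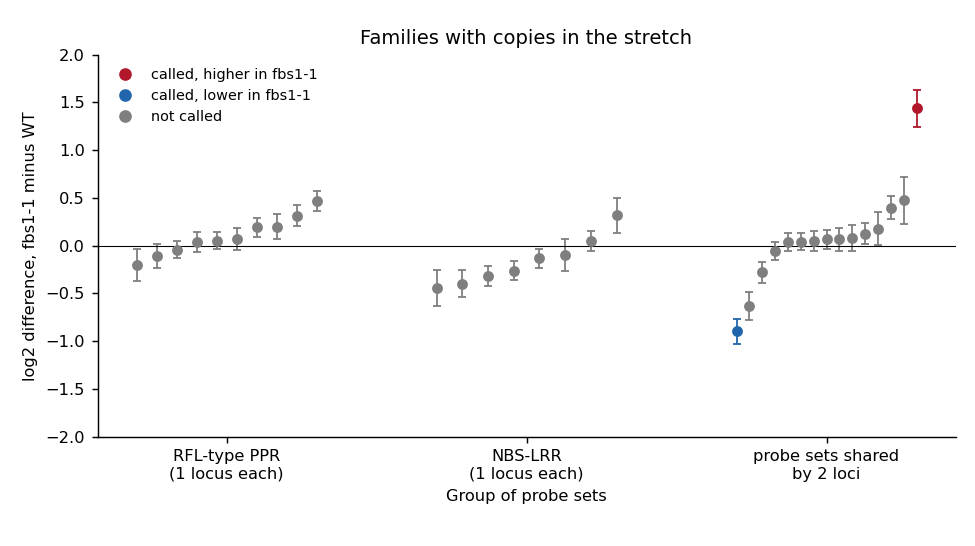
Difference between the genotypes (log2, *fbs1-1* minus WT, vertical axis) with bars of 1 standard error, for the 10 RFL-type PPR genes and the 8 NBS-LRR genes measured singly and for the 15 probe sets that match 2 loci each (horizontal axis, sorted within a group). None of the singly measured copies was called, and 1 shared probe set was called as higher (red) and 1 as lower (blue).

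Other groups had few measured members. Of 6 listed cell wall enzyme genes 4 were measured, of which *XTH17* was lower and the other 3 were not called. Of those, *KOR2* (At1g65610), for a membrane-bound endoglucanase, had 3.95, 3.20 and 3.25 in *fbs1-1* and 2.42, 2.86 and 2.59 in WT. Its arrays were apart, with a difference of 0.84 ± 0.21, the highest among the genes that did not pass the test. Of 9 listed flavin monooxygenase genes only *FMO GS-OX4* was measured singly, and of 3 TRAF-like genes only At1g65370. From a list of 27 genes of the stretch with well-studied functions, 7 were measured, with 3 higher (*CDS1*, *BETA-VPE* and *UBC5*), 2 lower (*VTE4* and *4CL3*) and 2 not called. Of all genes tied to 1 locus, 4.19% were called. *CDS1*, *UBC5*, *VTE4* and *4CL3*, like *XTH17*, *KOR2* and *FMO GS-OX4* above, are tied only by the study's tables. They were known to differ before they were counted, so nothing is read from these counts. *cICDH* (At1g65930), for the cytosolic isocitrate dehydrogenase that makes NADPH, was one of the 2 well-studied genes not called, with 9.42 ± 0.03 in *fbs1-1* and 9.55 ± 0.04 in WT.

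Of the 25 genes with a symbol that the platform's annotation ties, 1 was called, where 2.80% of all genes tied this way were called. The other 24 were not called, with differences from -0.69 to 0.72. The limits of these differences belong to *CP5* (At1g64720), with 7.65, 7.30 and 7.64 in *fbs1-1* and 8.53, 7.91 and 8.21 in WT, and to *CDI* (At1g64980), with 6.46, 6.74 and 7.02 in *fbs1-1* and 6.42, 5.82 and 5.82 in WT. Arrays of both genes were apart between the genotypes. *CP5* was called with the array numbers as a block, with the replicate numbers as a block and with an intensity trend, and *CDI* with array weights, within the arrays numbered 59 to 62 and without WT replicate 1. The group also holds *RPN12a*, for a subunit of the proteasome's regulatory particle, at 6.86 ± 0.01 in *fbs1-1* and 7.00 ± 0.16 in WT. *TUA1*, for an alpha-tubulin, averaged 4.83 ± 0.01 in *fbs1-1* and 5.07 ± 0.18 in WT. *MGL*, for the methionine gamma-lyase, averaged 4.00 ± 0.17 in *fbs1-1* and 3.59 ± 0.08 in WT. These 3 genes differed by less than 0.5 between the genotypes. At1g64360 was the only gene of the stretch with a 2-fold difference that was not called, with 2.42 ± 0.25 in *fbs1-1* and 3.45 ± 0.50 in WT, where the WT arrays were far from each other. It was called in 8 of the 14 other limma settings, among them those without WT replicate 1 (-1.26), with median centring (-1.06) and within the arrays numbered 59 to 62 (-1.40).

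The array names carry numbers, 43 and 45 for replicate 1 of each genotype and 59 to 62 for the others, and what these numbers stand for is not stated. With the 2 number ranges as a block, 19 genes were higher and 16 were lower, and all of the 29 were among them. Within the 4 arrays numbered 59 to 62, 11 were higher and 10 were lower, 17 of them shared with the 29, and all 9 genes with at least 2-fold differences were called there too. The share of all probe sets called is not given here for the block fit or for the arrays numbered 59 to 62. Nothing is read from the counts of these fits for this reason. The arrays numbered 43 and 45 are 1 per genotype and allow no test. Rank products, the test used in the study's methods, called 11 genes of the stretch as higher and 10 as lower, where it called 1.15% of all probe sets as higher and 1.20% as lower. All 9 genes with at least 2-fold differences were among these 21. The 9 were picked on these same arrays, so their return here and within the arrays numbered 59 to 62 is no independent check.

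Leaving out 1 array at a time separated the called genes further. In each of the 6 fits without 1 array, 12 of the 29 were called again, *UBC5*, At1g66430, *BETA-VPE*, *ENODL8*, *PP2-A5* and At1g64880 as higher and At1g65280, At1g65870, At1g65370, *XTH17*, *VTE4* and *mtACP2* as lower. The arrays of the genotypes were apart for all 29 called genes, so none could change direction in these fits. The fits reuse the arrays on which the 29 were called, so a repeated call is no independent check. Of the 12, *UBC5*, *ENODL8*, *PP2-A5*, *XTH17*, *VTE4* and *mtACP2* are tied only by the study's tables of differing genes. The share of all probe sets called is not given here for these fits.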

How the data were processed

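The deposited values are log2 intensities of 6 Affymetrix ATH1 arrays, which the authors made from scanner files by RMA (version not given in the sources used here). The labels call the 3 samples of each genotype biological replicates, and 3 arrays per genotype limit the precision. After 64 control probe sets were left out, 22746 were fitted with limma 3.58.1 (R 4.3.3), genotype as the only term, and adjusted p-values (Benjamini-Hochberg) were called under 0.05. Rank products (9 array pairs, 100 permutations) were coded with numpy 2.4.6 (Python 3.11.15, pandas 2.3.3). Both were tested on simulated data. The platform's annotation ties 13484 probe sets to 1 locus, and the study's tables tie 234 more. The tables used here tie the other 9028 to no single locus, which does not mean that they have none. Of a gene's several probe sets (3 genes of the stretch) the one with the highest mean was used. Named are called genes with at least 2-fold differences, on/off genes, border genes, members of fixed lists, and other called genes. At1g64360, *UBC28*, *CP5*, *CDI*, *RPN12a*, *TUA1*, *MGL*, *GLC*, *AGL23* and At1g65295 were added after their values were seen. Members and lists were chosen with earlier results of these data known. Columns with the study's own fold changes were not used.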

Additional observations from a re-analysis of the deposited data

How the results depend on the processing

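The 17 higher and 12 lower calls in the stretch changed with the arrays used. Leaving out 1 array gave 6 to 16 higher genes and 6 to 11 lower genes. Among the *fbs1-1* arrays, the fit without replicate 1 gave 9 higher and 9 lower, that without replicate 2 gave 6 and 8, and that without replicate 3 gave 8 and 6. Among the WT arrays these counts were 16 and 11 for replicate 1, 10 and 6 for replicate 2, and 8 and 7 for replicate 3. Rank products gave 11 higher and 10 lower, with 19 of the 29 called by both, and the arrays numbered 59 to 62 gave 11 higher. The other settings (median centring, a further quantile normalization, a filter at the 40th percentile, blocks, an intensity trend, array weights, any probe set of a gene, the platform's annotation alone) stayed within 1.5 times of both counts. The cause of these changes was not tested. The share of all probe sets called is not given here for the limma fits other than the main one. With replicate number as a block, 19 genes were higher and 14 lower. Deviations of same-numbered arrays correlated at r = 0.28, 0.088 and 0.14 over all probe sets, with *fbs1-1* replicate 2 closer to WT replicate 3 (0.14), and at 0.11, 0.10 and 0.064 over the stretch, each the highest of its array there. These values do not settle whether the arrays are paired, which the design does not state and which was not tested. The replicate numbers were not taken to pair the arrays. The single on/off gene became 0 with limits of 1.5 and 2.5 and with limits of 2.5 and 3.5, and 5 with 1 limit of 2, an alternative chosen after seeing the data. Of the uncalled genes named in the text, At1g64360 gained a call in 8 settings, *CP5* and *CDI* in 3 each, and *MGL* in 1 (array weights). At1g62422 changed sign, at 0.076 within the arrays numbered 59 to 62, and it ran from -0.20 to 0.018 when 1 array was left out, with the positive value without *fbs1-1* replicate 1. The count of RFL-type PPR genes called was 1 in place of 0 with quantile normalization, the array number block, array weights, the arrays numbered 59 to 62, and without WT replicate 1, and the probe set of the protein kinase pair was not called without *fbs1-1* replicate 3, at -0.82.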
